A study of Drosophila melanogaster with 12 samples.

Results

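The insect cuticle is an extracellular layer of chitin fibres set in protein, secreted by the epidermis and by the cells that line the tracheae and foregut. Most of its structural proteins come from large gene families. The genes described here are the cuticle protein families of Drosophila melanogaster whose symbols begin with Cpr and a digit, Ccp84, Lcp, Twdl or Edg. They were taken by symbol from a table that pairs probe sets with genes, using only probe sets that carry 1 symbol. A gene with several probe sets was represented by the one with the highest mean level. This gave 90 genes among 10844 named on the array: 58 Cpr, 4 Ccp84, 5 Lcp, 20 Twdl and 3 Edg genes. A further 7 probe sets carry a symbol of these families beside another symbol and were set aside. They are mentioned only where stated.

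Transcripts were measured in adult heads of y w flies, which in all samples carry mutant alleles of yellow, a gene for body colour, and of white, a gene for eye colour. One group of 6 arrays covers a day of constant darkness (DD), sampled at hours 2, 6, 10, 14, 18 and 22 after subjective lights-on. The other group of 6 arrays covers the same hours of the preceding day, which had 12 h of light and 12 h of darkness (LD) and followed 3 days in that cycle. Each time point is 1 array of RNA from approximately 100 to 200 pooled heads, collected on sieves after frozen flies were broken, and the sex and age of the flies are not given in the sources used here. Values are log2 expression levels per probe set. They compare a probe set between arrays, and levels of different genes are not ranked against each other. The p-values rest only on how far these arrays spread, and some of that spread may be technical.

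Proteins of the Cpr, Ccp84 and Lcp families, and Edg78E and Edg84A, carry the Rebers-Riddiford domain, which binds chitin. Lcp genes were first described from larval cuticle, and the Edg genes as ecdysone-dependent genes of the prepupa. The Twdl (Tweedle) proteins form a separate insect family, named for a TwdlD mutant whose larvae and pupae are short and stout. In flies much cuticle protein synthesis occurs around the moults, under ecdysone, and the adult cuticle goes on thickening after eclosion.

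The median level of the arrays lay between 5.37 and 5.40 over 13966 probe sets. A measure of RNA completeness, the signal at the 5′ ends minus that at the 3′ ends of 3 control transcripts, averaged −1.93 ± 0.45 log2 in DD and −1.70 ± 0.19 log2 in LD (SD, n = 6 each). It was lowest at DD 18 and DD 22. Among markers of the head, the photoreceptor genes trpl, Arr1 and Arr2 had a mean level of 10.73 to 11.42 in DD and of 10.63 to 11.56 in LD. The mean of 4 genes listed for flight muscle was 5.66 to 5.91 in DD and 5.93 to 6.74 in LD. The mean of 3 yolk protein genes was 13.16 to 13.57 in DD and 13.39 to 13.57 in LD. Accessory gland genes (3) averaged 3.55 to 3.96 in DD and 3.53 to 3.72 in LD, midgut genes (3) 4.70 to 5.23 in DD and 4.78 to 4.93 in LD, neuron genes (2) 5.19 to 6.10 in DD and 5.36 to 5.90 in LD, and glia genes (2) 5.88 to 6.56 in DD and 5.63 to 6.32 in LD. None of the genes in these 7 marker lists was called for the daily rhythm or for a difference between the days (limma). At an unadjusted p under 0.05, 2 genes of the flight muscle list were lower in DD. At that p, 1 gene of the flight muscle list and 1 photoreceptor gene were rhythmic. Over all probe sets 4.02% were lower in DD and 4.68% rhythmic at that p.

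Most cuticle protein genes varied little over the 2 days, as did most probe sets on the array. For 60 of the 90 the highest and lowest of the 12 arrays differed by less than 0.5 log2, which was so for 57.0% of all probe sets. The median range was 0.41 log2 for the 90 genes and 0.45 log2 for all probe sets. At the other end, 13 of the 90 had a range of 1 log2 or more (14.4%), against 10.9% of all probe sets. Of these 13 genes, 11 are Cpr and 2 Twdl genes. The heat map of all genes by array shows the flat majority and 3 patterns among the rest: a set high in LD until hour 18, a pair with a morning peak on each day, and a set high at DD 2 and DD 6.

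**Figure D1:**
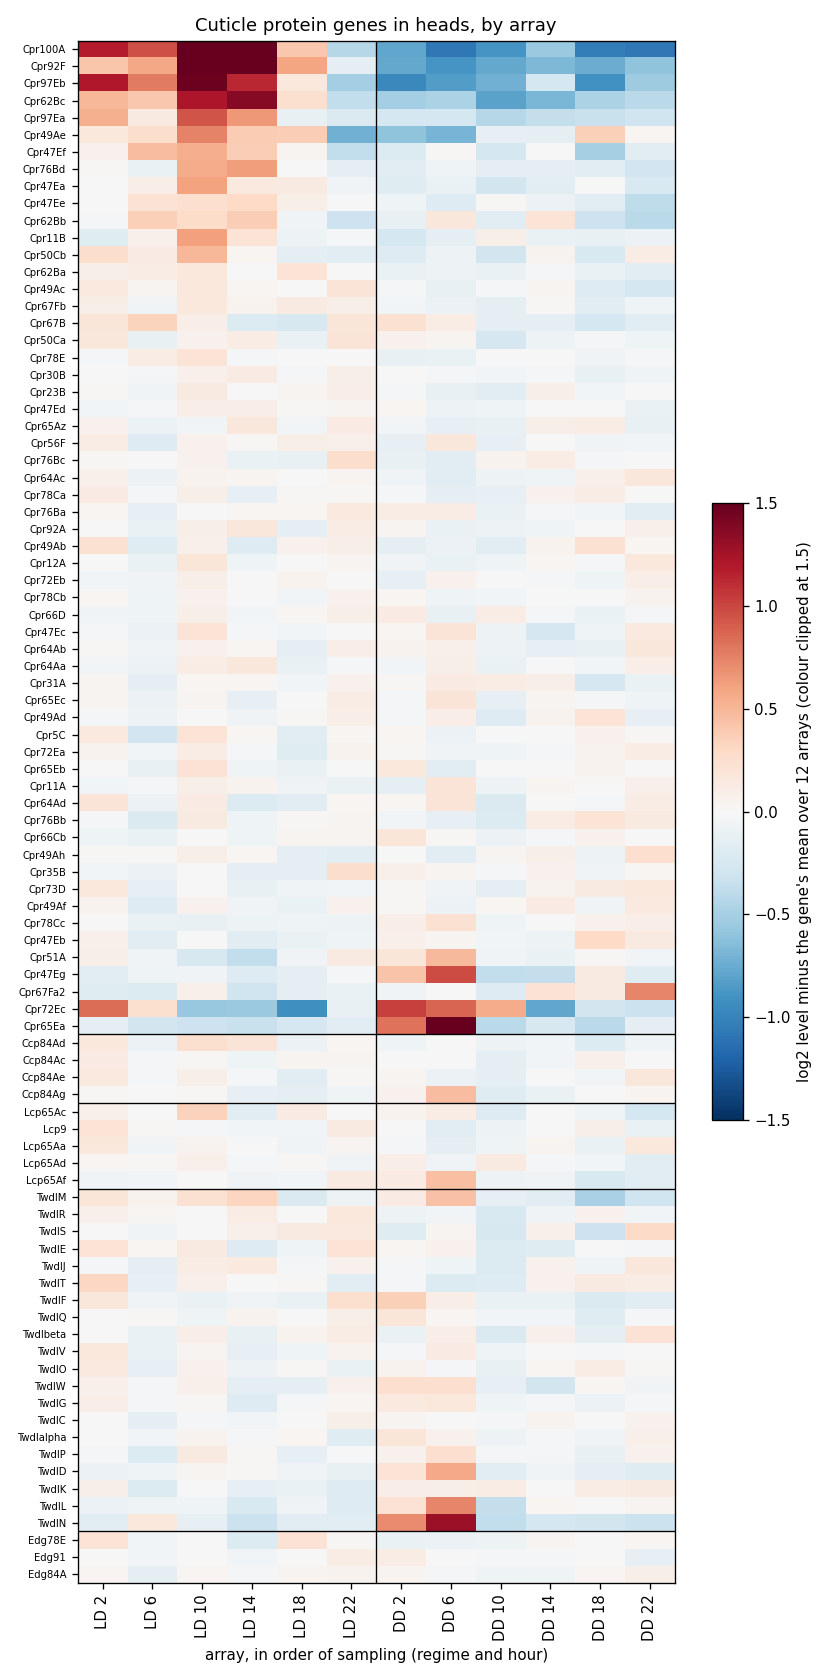
Log2 level of each of the 90 cuticle protein genes (rows, grouped by subfamily and ordered by DD minus LD) on each of the 12 arrays (columns, in order of sampling), minus the gene's mean over the arrays, with the colour clipped at 1.5. At the top of the Cpr block, Cpr100A, Cpr92F, Cpr97Eb and Cpr62Bc are red from LD 2 to LD 18 and blue in DD. Cpr72Ec is red in the morning hours, and Cpr65Ea, Cpr47Eg, TwdlN and TwdlL are red at DD 2 and DD 6.

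The 3 genes of highest signal in each subfamily were named by rule, and apart from Cpr72Ec and TwdlM, whose values follow later, they were flat. Ccp84Ac, Ccp84Ad and Ccp84Ae, chitin-binding family members of a gene cluster on the right arm of chromosome 3, had ranges of 0.27, 0.44 and 0.34 log2. Cpr64Aa averaged 9.17 ± 0.08 in DD and 9.17 ± 0.11 in LD, and Cpr64Ac averaged 8.28 ± 0.12 in DD and 8.32 ± 0.06 in LD (SD, n = 6 each). TwdlC (range 0.23 log2) and TwdlJ (0.38) were similarly flat. The ecdysone-dependent genes Edg78E, Edg84A and Edg91 had ranges of 0.42, 0.22 and 0.23 log2. The signal of Edg78E was low, at 2.46 to 2.88 log2 on the 12 arrays. Among the larval cuticle protein genes, Lcp65Aa, Lcp9 and Lcp65Ac ranged over 0.31, 0.36 and 0.61 log2.

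The mean level over the DD day was first set against that over the LD day. Constant darkness, the second place in the order of sampling and older flies came together here and cannot be told apart. Cpr100A and Cpr92F fell, and no cuticle protein gene rose past the threshold. These were 2 of 90 genes, against 0.15% of all probe sets called in either direction and 0.129% called lower in DD (limma, Benjamini-Hochberg over 13966 probe sets, threshold 0.05). In bulk samples such as these, fewer cells of a type and less RNA per cell cannot be told apart.

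Cpr100A (NCBI gene 43657), which encodes a chitin-binding cuticle protein, had 7.33, 7.04, 7.22, 7.55, 7.07 and 7.04 log2 at DD 2 to DD 22. In LD it had 9.29, 9.08, 9.69, 9.80, 8.52 and 7.68 at the same hours. All DD arrays were below all LD arrays, and the lowest LD array was the last, at hour 22. The mean was 7.21 ± 0.20 in DD and 9.01 ± 0.80 in LD (SD, n = 6 each), a difference of −1.80 ± 0.25 log2 (SE), or 3.49-fold lower in DD (limma, adjusted p = 0.0141).

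Cpr92F (NCBI gene 42450), of the same domain family, had 4.86, 4.74, 4.86, 4.95, 4.88 and 5.03 log2 at DD 2 to DD 22, against 6.04, 6.21, 7.12, 7.14, 6.22 and 5.48 at LD 2 to LD 22. The groups did not overlap. Its DD arrays were nearly level, whereas its LD arrays were highest at hours 10 and 14 and lowest at hour 22. The difference was −1.48 ± 0.20 log2 (SE), or 2.78-fold lower in DD (limma, adjusted p = 0.0134).

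The call of Cpr92F was lost without DD 6 (adjusted p = 0.0521) or DD 18 (0.0543). That of Cpr100A was lost without DD 6 (0.0539), DD 10 (0.0527), DD 18 (0.0543) or LD 10 (0.0592). Their differences stayed between −1.82 and −1.44 log2 in these fits. Without LD 22, 4 genes passed: Cpr100A, Cpr92F, Cpr97Eb (adjusted p = 0.0169) and Cpr62Bc (0.0456). Without DD 2 alone, Cpr47Ee passed as well (0.0434). Without DD 2 and DD 6 together no gene of the 90 passed, and with the 4 arrays that had the lowest 5′ signal left out no gene of the 90 passed (limma, with 16 and 14 at an unadjusted p under 0.05).

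Several further Cpr genes showed the same course without passing the threshold. Cpr97Eb had 5.86, 5.99, 6.10, 6.55, 5.91 and 6.29 log2 at DD 2 to DD 22, and 8.02, 7.60, 8.29, 7.95, 6.97 and 6.31 at LD 2 to LD 22. Its groups overlapped only through LD 22, and the difference was −1.41 ± 0.26 log2 (limma, adjusted p = 0.0976). When the fit also held the measure of RNA completeness it was −1.67 log2 (adjusted p = 0.0202). Cpr97Ea had 6.90, 6.90, 6.74, 6.80, 6.82 and 6.86 in DD, and 7.69, 7.30, 8.11, 7.81, 7.05 and 6.94 in LD. These groups did not overlap, with a difference of −0.65 ± 0.16 log2 (adjusted p = 0.380).

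Cpr62Bc had 6.35, 6.40, 6.07, 6.19, 6.39 and 6.47 log2 at DD 2 to DD 22, and 7.37, 7.27, 8.08, 8.23, 7.11 and 6.49 at LD 2 to LD 22. The LD arrays were highest at hours 10 and 14, and the last of them was just above the highest DD array. The difference was −1.12 ± 0.23 log2 (limma, adjusted p = 0.177). Smaller differences were found for Cpr47Ee (−0.29 ± 0.06 log2, adjusted p = 0.138), Cpr47Ef (−0.37 ± 0.11, 0.524) and Cpr62Ba (−0.20 ± 0.05, 0.460). All 6 DD arrays lay below all 6 LD arrays in 5 of the 90 genes, namely Cpr100A, Cpr92F, Cpr97Ea, Cpr62Bc and Cpr62Ba. That was so for 0.437% of all probe sets. The reverse held for none of the 90 and for 0.122% of all probe sets.

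**Figure D2:**
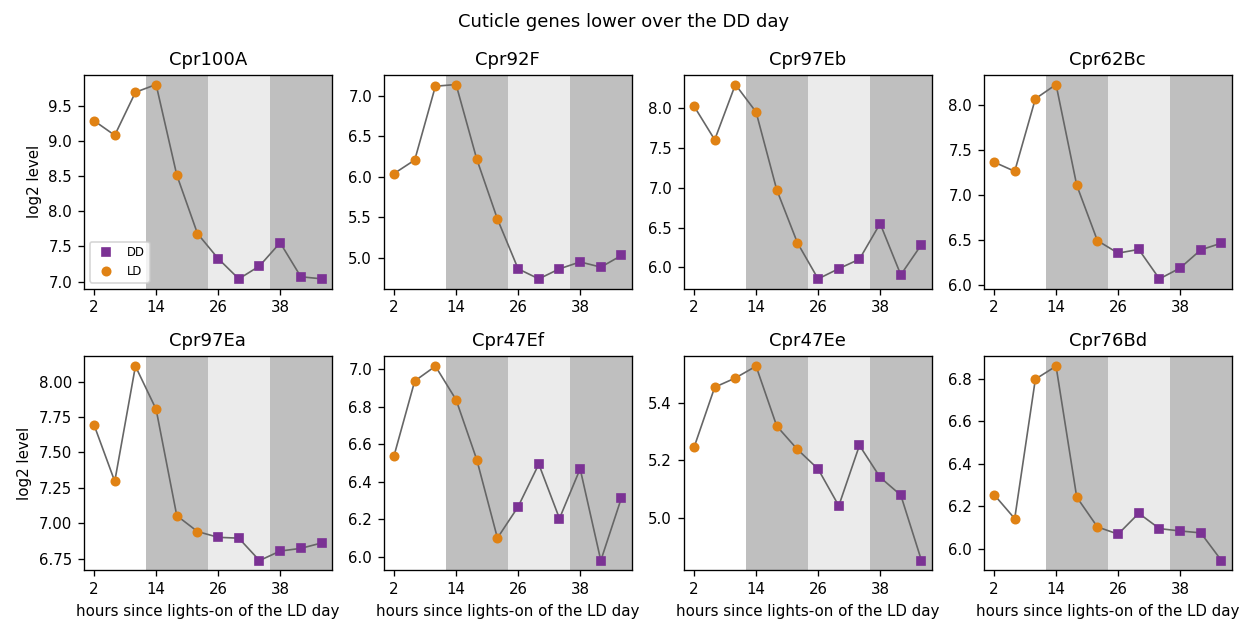
Log2 level on each array against hours since lights-on of the LD day, for 8 Cpr genes that were lower over the DD day (purple squares, DD; orange circles, LD; dark grey, darkness or subjective night; light grey, subjective day in darkness). The 4 genes of the top row were highest at LD 10 or LD 14, and their LD 22 arrays lay within 0.59 log2 of the DD mean.

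By hour, the LD 22 level of the 4 genes with the largest differences lay nearer to their DD mean than to their mean over LD 2 to LD 18. Cpr100A averaged 7.21 log2 in DD, had 7.68 at LD 22, and averaged 9.28 over LD 2 to LD 18. Cpr97Eb averaged 6.12 in DD, had 6.31 at LD 22, and averaged 7.77 over LD 2 to LD 18. For Cpr62Bc the same values were 6.31, 6.49 and 7.61, and for Cpr92F they were 4.89, 5.48 and 6.54. In Cpr100A, Cpr62Bc and Cpr92F the LD 22 array was still above every DD array. Over all 90 genes, 15 were lower in DD at an unadjusted p under 0.05 (16.7%), against 4.02% of all probe sets. The LD 22 array was the lowest of the LD arrays in 11 of these 15 (73.3%), against 23.0% of the 562 probe sets lower in DD at that p. It lay within the range of the DD arrays in 7 of the 15 (46.7%), a share near the 47.0% of those 562.

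Higher levels in DD were few and small. TwdlK (0.18 ± 0.06 log2), Cpr78Cc (0.14 ± 0.05), Cpr47Eb (0.14 ± 0.07) and Cpr67Fa2 (0.28 ± 0.13) were the 4 genes higher in DD at an unadjusted p under 0.05 (4.44%, against 2.79% of all probe sets), with adjusted p from 0.554 to 0.733. They were chosen after their values were seen. The value of Cpr67Fa2 leaned on DD 22, at 3.20 log2. The rest of its DD arrays had 2.28 to 2.68, and its LD arrays 2.17 to 2.55.

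By subfamily, the low tail was in Cpr. The median difference was −0.02 log2 for the 90 genes and −0.0045 log2 for all probe sets. It was −0.03 for Cpr (range −1.80 to 0.49), −0.03 for Ccp84 (−0.15 to 0.10), −0.05 for Lcp (−0.12 to 0.02), 0.02 for Twdl (−0.17 to 0.26) and −0.02 for Edg (−0.07 to 0.003). An unadjusted p under 0.05 was reached by 17 of 58 Cpr genes, 2 of 20 Twdl genes and no gene of the other subfamilies, against 6.82% of all probe sets. The subfamilies were not tested against each other.

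**Figure D3:**
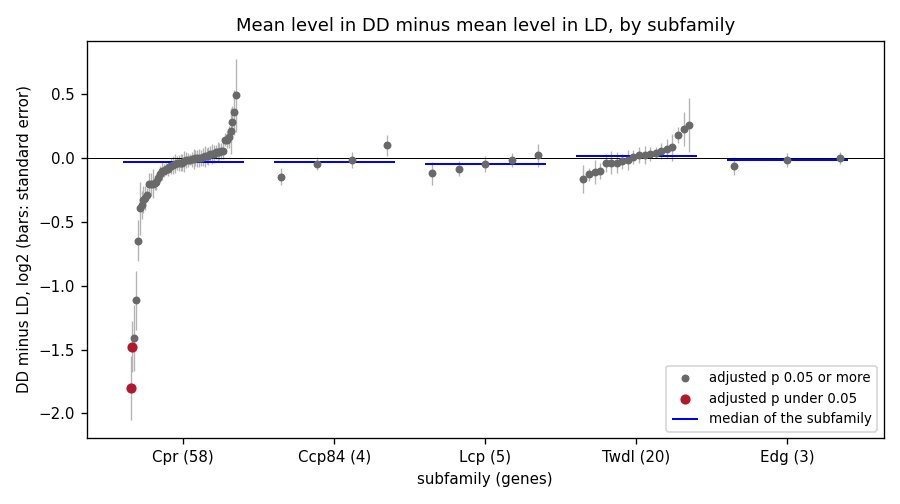
Mean log2 level in DD minus that in LD for each cuticle protein gene (points, with standard errors from limma), by subfamily, with the subfamily median as a blue line and the number of genes in parentheses. Cpr92F and Cpr100A are in red, at −1.48 and −1.80, and all Lcp, Twdl, Ccp84 and Edg genes lie between −0.17 and 0.26.

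One of the probe sets set aside, shared by 2 further Ccp84 genes, was also highest at LD 10 and LD 14. It had 3.27, 3.51, 3.03, 3.25, 3.04 and 3.33 log2 at DD 2 to DD 22, and 4.87, 4.00, 5.76, 5.75, 3.53 and 3.38 at LD 2 to LD 22. The difference was −1.31 ± 0.37 log2 (limma, adjusted p = 0.501), and the 4 separately measured Ccp84 genes had ranges of 0.27 to 0.64 log2.

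Genes of cuticle formation outside these families were read from lists. Among 16 measured genes of other cuticle and apical matrix proteins, 2 fell past the threshold and none rose. Over all probe sets 0.129% were called lower in DD. At an unadjusted p under 0.05, 4.02% of all probe sets were lower in DD and 2.79% higher. Acp1, adult cuticle protein 1, fell by 3.73 ± 0.32 log2, with 8.35 ± 0.40 in DD and 12.08 ± 0.86 in LD (SD, n = 6 each, limma, adjusted p = 0.00185). Vajk3 fell by 2.36 ± 0.32 log2 (adjusted p = 0.0134). None of 11 peritrophin-like genes was called (limma, 3 lower and 1 higher at an unadjusted p under 0.05). Gasp, a chitin-binding protein of the tracheal and epidermal matrix, had 4.64 ± 0.20 in DD and 5.82 ± 0.64 in LD (SD, n = 6 each), a difference of −1.18 ± 0.22 log2 (adjusted p = 0.115), and obst-B differed by −0.42 ± 0.10 (0.309).

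Of 13 measured genes for chitin synthesis and modification none was called (limma, 4 lower and 0 higher at an unadjusted p under 0.05). For this and the following lists, the share of all probe sets lower in DD at that p was 4.02%. The chitin deacetylase gene verm had 6.91 ± 0.20 in DD and 8.11 ± 0.88 in LD (SD, n = 6 each), with a difference of −1.19 ± 0.33 log2 (adjusted p = 0.476). Its partner serp differed by −0.39 ± 0.11 (0.474). Among 15 chitinase and imaginal disc growth factor genes none was called, with 3 lower at an unadjusted p under 0.05, and Cht5 differed by −0.36 ± 0.10 (0.474). Among 15 genes of sclerotization and pigment none was called, with 4 lower. The laccase gene stw, which cross-links cuticle, differed by −0.23 ± 0.07 log2 (adjusted p = 0.524), and yellow-e by −0.48 ± 0.12 (0.396). For 16 ecdysone and cuticle gene regulators none had an unadjusted p under 0.05, and the median difference was 0.01 log2.

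Values of genes listed for other tissues are given beside these. In the flight muscle list, Mlc2 (−0.73 ± 0.16 log2, limma, adjusted p = 0.212) and Act88F (−1.17 ± 0.27, 0.294) were the 2 of 4 with an unadjusted p under 0.05. Over all probe sets 4.02% were lower in DD at that p. The other 2 genes of the list, fln and TpnC4, differed by −0.09 ± 0.07 and −0.01 ± 0.06 log2. Their signal was low, with means of 3.27 and 2.49 in DD and of 3.36 and 2.50 in LD. Lsp2, a storage protein gene listed here for the larval fat body and chosen after its values were seen, fell by 1.19 ± 0.19 log2 (limma, adjusted p = 0.0335). Whether its signal in these adult heads came from larval tissue was not tested. Lsp2 had 8.75, 8.91, 8.87, 8.78, 8.66 and 9.08 log2 at DD 2 to DD 22, and 9.28, 9.52, 10.27, 10.14, 10.74 and 10.21 at LD 2 to LD 22. In its list, also added after the data were seen, 3 of 6 genes were measured. All 3 were lower in DD at an unadjusted p under 0.05, against 4.02% of all probe sets. The part of such tissues, or of the flies' age, in the lower Cpr levels was not tested.

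The daily rhythm, the question the series was designed for, was fitted as a 24 h cosine over both days. None of the 90 genes passed (limma, against 0.0215% of all probe sets), and 13 had an unadjusted p under 0.05 (14.4%, against 4.68% of all probe sets). The median fitted amplitude, from mean to peak, was 0.07 log2 for the 90 genes and for all probe sets alike. The smallest p-values were those of Cpr72Ec and Cpr67B, both of which were highest in the first hours of each day.

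Cpr72Ec (NCBI gene 39816), a gene with a chitin-binding domain, had 11.15, 11.00, 10.68, 9.34, 9.85 and 9.80 log2 at DD 2 to DD 22, and 10.97, 10.37, 9.55, 9.57, 9.21 and 10.01 at LD 2 to LD 22. It was high at hour 2 on each day. In DD it stayed high through hour 10, where its LD level was already low. The difference between its DD and LD curves did not pass (limma, adjusted p = 0.779). Over both days the fitted curve had a peak-to-trough ratio of 3.02 (limma, adjusted p = 0.290). Fitted separately, the curve had an amplitude of 0.87 ± 0.17 log2 and peaked at hour 4.81 in DD, and it had 0.76 ± 0.17 and peaked at hour 3.03 in LD (adjusted p = 0.234 and 0.557). Its neighbours Cpr72Ea and Cpr72Eb, close to it on the left arm of chromosome 3, had ranges of 0.30 and 0.22 log2, against 1.94 for Cpr72Ec.

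Cpr67B had 7.70, 7.59, 7.34, 7.33, 7.22 and 7.32 log2 at DD 2 to DD 22, and 7.67, 7.82, 7.58, 7.28, 7.24 and 7.66 at LD 2 to LD 22. Hour 18 was lowest on each day. The amplitude was 0.21 ± 0.07 log2 in DD and 0.28 ± 0.07 in LD, with peaks at hour 4.09 on each day (limma, adjusted p = 0.379 and 0.602). With 1 array left out at a time, the amplitude over both days lay between 0.73 and 0.87 log2 for Cpr72Ec and between 0.23 and 0.27 for Cpr67B, and neither passed in any of these fits.

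**Figure D4:**
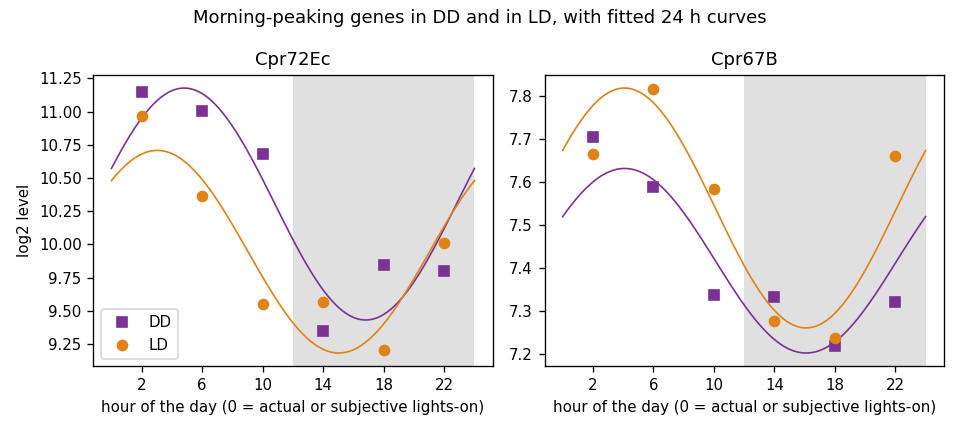
Log2 levels of Cpr72Ec (left) and Cpr67B (right) against the hour of the day on the DD arrays (purple squares) and the LD arrays (orange circles), with the 24 h curve fitted to each day and the night or subjective night shaded. Cpr72Ec peaked at hour 4.81 in DD and at hour 3.03 in LD, and Cpr67B at hour 4.09 on each day.

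Among the other genes with an unadjusted p under 0.05 for the daily rhythm, TwdlN peaked at hour 4.55 and its amplitude was 0.44 ± 0.15 log2. Fitted separately, the amplitude of TwdlN was 0.74 ± 0.18 log2 in DD and 0.14 ± 0.18 in LD, and its highest arrays were DD 2 and DD 6. The difference between these 2 curves did not pass (limma, adjusted p = 0.626). Cpr62Bb (0.27 ± 0.07 log2), Cpr47Ee (0.14 ± 0.04) and Cpr47Ef (0.26 ± 0.08) peaked between hours 9.08 and 10.6, and TwdlM (0.26 ± 0.08) at hour 6.71. Cpr51A (0.20 ± 0.06) and TwdlW (0.16 ± 0.05) peaked at hours 2.22 and 2.95. For the daily rhythm, the adjusted p of these genes lay between 0.899 and 0.967 (limma). In the 6 lists of cuticle formation none was called for the daily rhythm (limma). An unadjusted p under 0.05 was found for 3 genes, where 4.68% of all probe sets had one. They were pio, a zona pellucida domain protein of the apical matrix (0.36 ± 0.09 log2, adjusted p = 0.921), e, which encodes the pigment enzyme ebony (0.42 ± 0.11, 0.967), and Cyp18a1, an ecdysone-degrading enzyme (0.52 ± 0.11, 0.795). These were 1 of 16 measured genes of other cuticle and apical matrix proteins, 1 of 15 of sclerotization and pigment, and 1 of 16 regulators. The remaining lists, with 13, 15 and 11 measured genes, had none.

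Within DD no cuticle protein gene had a rhythm that passed (limma, 0 of 90 and 0.0% of all probe sets), and 11 had an unadjusted p under 0.05 (12.2%, against 11.5% of all probe sets). Within LD none passed either (against 0.0501% of all probe sets), and 14 had an unadjusted p under 0.05 (15.6%, against 5.66%). All 14 are Cpr genes. In LD, Cpr72Ec aside, the largest amplitudes belonged to genes that had lower values in DD: 0.85 ± 0.21 log2 for Cpr100A (adjusted p = 0.606), 0.79 ± 0.10 for Cpr92F (0.102), 0.78 ± 0.21 for Cpr97Eb (0.718) and 0.73 ± 0.14 for Cpr62Bc (0.480). The LD curves of Cpr100A, Cpr62Bc and Cpr92F peaked at hours 9.94, 11.1 and 11.6. These fits depended on single arrays: without LD 2 those 4 genes passed (adjusted p from 0.00275 to 0.0381), and without LD 6 Cpr92F (0.0177) and Cpr97Ea did. Over all probe sets the number called was 7 with all arrays, 16 without LD 2 and 37 without LD 6.

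The difference between the DD and the LD rhythm passed for none of the 90 genes (limma, 0.0% of all probe sets called). It had an unadjusted p under 0.05 for 4 of them (4.44%, against 9.96% of all probe sets), namely Cpr92F, Cpr62Bc, Cpr49Ae and Cpr65Ea. The difference vector of Cpr92F was 0.83 ± 0.14 log2 (adjusted p = 0.229) and that of Cpr62Bc 0.89 ± 0.20 (0.30). Without LD 2 both passed (0.0198 and 0.0285). Cpr49Ae had 5.55, 5.46, 6.04, 6.01, 6.52 and 6.19 log2 at DD 2 to DD 22, and 6.32, 6.42, 6.90, 6.54, 6.52 and 5.44 at LD 2 to LD 22. It was low on the 3 consecutive arrays LD 22, DD 2 and DD 6, and its curves peaked at hour 17.3 in DD and hour 10.7 in LD (0.74 ± 0.21, adjusted p = 0.396).

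Another pattern concerned 2 consecutive arrays. DD 2 and DD 6 were both above all 10 other arrays in 11 of the 90 genes (12.2%), against 1.14% of all probe sets. These were Cpr65Ea, TwdlN, Cpr47Eg, TwdlW, TwdlL, TwdlD, TwdlG, Cpr51A, Cpr72Ec, Ccp84Ag and Cpr78Cc. The gap between the lower of DD 2 and DD 6 and the highest other array was 0.95 log2 for Cpr65Ea and 0.56 for TwdlN. It was 0.29 for Cpr47Eg and 0.17 for TwdlW, TwdlL and TwdlD. For TwdlG, Cpr51A, Cpr72Ec, Ccp84Ag and Cpr78Cc it was only 0.006 to 0.05, and Cpr72Ec was also high at LD 2 (10.97). The pattern was chosen after the values were seen and has no test. DD 6 was the array of the highest level for 16 genes (17.8%, against 4.29% of all probe sets), and LD 10 for 18 (20.0%, against 10.1%). DD 6 was also the array of the lowest level for 13 genes (14.4%, against 6.44% of all probe sets).

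Cpr65Ea, a chitin-binding family member, had 6.53, 7.58, 5.32, 5.48, 5.32 and 5.58 log2 at DD 2 to DD 22, and 5.58, 5.45, 5.41, 5.39, 5.46 and 5.57 at LD 2 to LD 22. DD 2 stood 0.95 log2 above the highest of the other 10 arrays, and DD 6 was higher still. The amplitude in DD was 0.96 ± 0.22 log2 (limma, adjusted p = 0.274), and 0.55 without DD 6 (0.460). Its neighbour Cpr65Eb had 4.66 and 4.34 at DD 2 and DD 6 and was highest at LD 10 (4.72). The neighbour Cpr65Ec was also highest at DD 6, by a smaller margin (5.07, against 4.76 to 4.99 on the other arrays). Pairwise correlations in this group of 3 lay between −0.22 and 0.62 over the 12 arrays.

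TwdlN had 7.34, 7.93, 6.26, 6.37, 6.35 and 6.30 log2 at DD 2 to DD 22, and 6.47, 6.79, 6.51, 6.30, 6.47 and 6.46 at LD 2 to LD 22. Its brightest probe set is of a type whose probes can match several related transcripts, but a dimmer TwdlN probe set also had its highest levels at DD 2 and DD 6 (5.67 and 5.72, against 4.95 to 5.41 on the other arrays). The amplitude of TwdlN in DD was 0.74 ± 0.18 log2 (limma, adjusted p = 0.288), and 0.46 without DD 6 (0.581). Cpr47Eg had 7.39 and 7.94 at DD 2 and DD 6, 6.60 to 7.10 at the later DD hours, and 6.77 to 6.94 in LD. TwdlD, the gene of the mutant that named the Tweedle family, had 6.75 and 7.12 at DD 2 and DD 6, 6.36 to 6.49 at the later DD hours, and 6.43 to 6.58 in LD.

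TwdlM differed between its 2 probe sets. The brighter had 9.95, 10.27, 9.71, 9.67, 9.35 and 9.53 log2 at DD 2 to DD 22, and 10.02, 9.88, 10.06, 10.15, 9.62 and 9.76 at LD 2 to LD 22. The dimmer had 5.47 and 6.72 at DD 2 and DD 6, against 4.70 to 4.96 on the remaining DD arrays and 4.71 to 5.26 in LD. Lcp65Af was high at DD 6 alone (4.09, against 3.42 to 3.77 on the other arrays). Of the probe sets set aside, one shared by 3 Lcp genes varied over 4.00 log2. It had 7.87, 9.32, 5.61, 5.55, 6.91 and 5.48 at DD 2 to DD 22, and 5.67, 7.27, 5.50, 5.32, 5.62 and 6.14 at LD 2 to LD 22. One shared by a pair of Twdl genes had 6.50 and 7.39 at DD 2 and DD 6, 5.50 to 5.81 at the later DD hours, and 5.38 to 6.13 in LD.

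**Figure D5:**
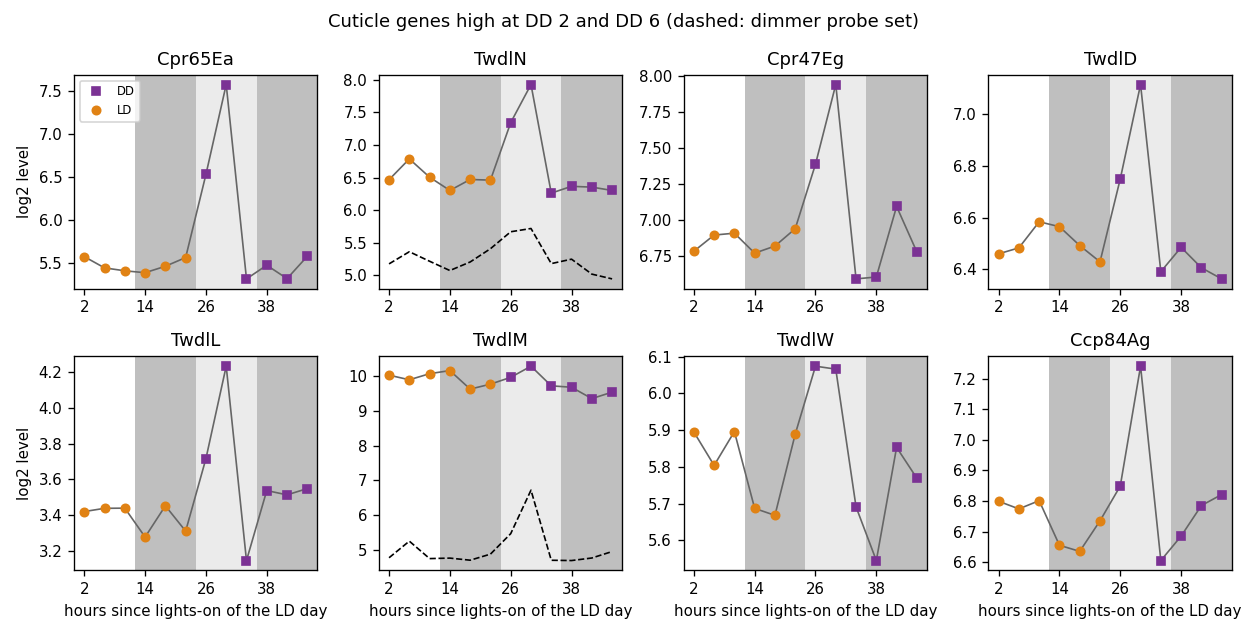
Log2 level on each array against hours since lights-on of the LD day for 8 cuticle protein genes (purple squares, DD; orange circles, LD; dashed line, the dimmer probe set where there is one; dark grey, darkness or subjective night; light grey, subjective day in darkness). Cpr65Ea and TwdlN reach 7.58 and 7.93 at DD 6, and the dimmer probe set of TwdlM reaches 6.72 where its brighter one reaches 10.27.

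Genes listed for larval tissues other than cuticle were also read at DD 2 and DD 6. For 6 glue protein genes of the larval salivary gland, a list added after the data were seen, ranges over the 12 arrays were 0.22 to 0.39 log2. Their mean lay between 4.96 and 5.10 on all 12 arrays. Lsp2 had 8.75 and 8.91 at DD 2 and DD 6 and 8.66 to 9.08 at the later DD hours. From the same fat body list, Fbp1 had 6.89 and 6.93 at DD 2 and DD 6 and 6.63 to 6.99 at the later DD hours, and Fbp2 had 3.50 and 3.49, and 3.49 to 3.63 later. The part of larval tissue in the levels at DD 2 and DD 6 was not tested. The 5′ minus 3′ signal was −1.52 at DD 2, the highest of the 12 arrays, and −1.64 at DD 6.

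Cuticle protein genes lie in groups along the chromosomes, and neighbours within a group often differed. Groups were formed from genes with at most 3 other protein-coding genes between them, and 12 groups held 3 or more of the genes measured here. In the group from Cpr47Ea to Cpr47Eg, all 7 of whose genes were measured, Cpr47Ea, Cpr47Ee and Cpr47Ef differed by −0.31, −0.29 and −0.37 log2, Cpr47Eg was high at DD 2 and DD 6, and Cpr47Ed varied by only 0.21 log2. Pairwise correlations there ran from −0.70 to 0.75 over the 12 arrays. In the group from Cpr76Ba to Cpr76Bd, Cpr76Bd was highest at LD 10 and LD 14 (6.80 and 6.86, against 5.95 to 6.17 in DD and 6.10 to 6.26 on the other LD arrays). Its difference was −0.33 ± 0.11 log2 (limma, adjusted p = 0.546), and that of the other 3 genes of the group lay between −0.04 and 0.03.

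The largest group, from TwdlM to TwdlQ, holds 13 cuticle protein genes, 11 of them measured. By their brightest probe sets, TwdlN, TwdlL and TwdlD were high at DD 2 and DD 6, and the ranges of the other 8 ran from 0.27 to 0.93 log2. Among those 8, the dimmer probe set of TwdlM was also high at DD 2 and DD 6 (5.47 and 6.72, against 4.70 to 5.26 elsewhere). TwdlM by its brighter probe set and TwdlP were highest at DD 6 (10.27 and 6.50). Pairwise correlations of the brightest probe sets ran from −0.57 to 0.93. Correlations were higher in the groups from Cpr62Ba to Cpr62Bc (median r = 0.62) and from TwdlF to TwdlV (0.70), against a median of 0.15 over all 4005 pairs of the 90 genes. The sizes of change still differed from Cpr62Ba to Cpr62Bc, with ranges of 0.38 to 2.17 log2. These correlations describe probe sets that share 12 arrays and their differences in quality.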

How the data were processed

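RNA from fly heads was hybridised to 12 Affymetrix arrays, 1 for each of 6 time points in DD and 6 in LD. The deposited values are log2 expression levels per probe set that the authors made with RMA, per the submitters' processing notes, and the sources used here do not say whether all arrays were normalized together. Of 14010 probe sets, 44 controls were left out and 13966 tested. Gene symbols come from the platform annotation: 12443 probe sets have 1 symbol, 327 several and 1196 none. Gene order was taken from RefSeq (Release 6 assembly), where all 90 genes matched.

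Models were fitted with limma 3.58.1 in R 4.3.3, with Benjamini-Hochberg adjustment over all 13966 probe sets and a threshold of 0.05. A 24 h cosine and sine with a regime term gave the daily rhythm and the mean level of DD minus LD, and separate curves gave the DD rhythm, the LD rhythm and their difference. Amplitudes run from mean to peak. The code was tested on data with known answers. The number of arrays limits the precision.

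Genes named are those past the threshold, the 8 smallest p-values in each of 5 comparisons, the 10 largest ranges, and the 3 of highest signal in each subfamily, with the 2 smallest p-values for rhythm and mean level in each further list. Neighbours on the chromosome and other genes outside this rule were chosen after their values were seen. The genes and lists were chosen with earlier results of these data known. Alternatives changed the normalization, the filter on dim probe sets, the variance prior, the probe set rule, the regime and hour terms, an RNA completeness covariate, and left out arrays.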

Additional observations from a re-analysis of the deposited data

Results flagged for a closer look

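In 4 of the 68 groups of 6 arrays examined for the 34 named genes, 1 array stood far from the other 5, and chance gives such an array in about 1 group in 20. Ccp84Ad had 8.57 log2 at DD 18, below the 8.71 to 8.79 of the other DD arrays. Edg84A had 6.17 at LD 6, below the 6.29 to 6.36 of the other LD arrays. Edg91 had 5.62 at LD 22, above the 5.46 to 5.51 of the other LD arrays. Lcp65Af had 3.77 at LD 22, above the 3.59 to 3.64 of the other LD arrays.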

How the results depend on the processing

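The 8 genes whose difference between the days was recomputed (Cpr100A, Cpr92F, Cpr97Eb, Cpr97Ea, Cpr62Bc, Cpr62Ba, Cpr47Ee and Cpr47Ef) were lower in DD under each alternative run for them. Of the values of differences and amplitudes for named genes under alternatives, 763 kept their side of the threshold, 11 gained a call and 12 lost one. Only the mean-level differences of Cpr100A and Cpr92F were called in the main fits, so all 12 losses were theirs. Each of these 2 was fitted in 23 settings, the main one included. Most values that kept their side were never called. The count of cuticle protein genes called for the mean level, 2 over all arrays, was 0 without DD 2 and DD 6, 0 without the 4 arrays of lowest 5′ signal (both chosen after seeing the data) and 0 with the hour of day as a replicate block, and ran from 0 to 4 with 1 array left out. In the main fits arrays of the same hour were not treated as pairs. Their deviations from the day means, over all probe sets, correlated at −0.44 to 0.15, and 0 of 6 matched its own hour best. Taken over all probe sets, these correlations do not show whether single genes follow the hour. With that block, Cpr92F differed by −1.48 log2 (limma, adjusted p = 0.113) and Cpr100A by −1.80 (0.0702), and 16 of the 90 genes had an unadjusted p under 0.05. The differences ran from −1.62 to −1.37 for Cpr92F and from −2.02 to −1.67 for Cpr100A. With 1 array left out, the count called ran from 0 to 4 for the LD rhythm and from 0 to 2 for the difference of rhythms. The cause of these changes was not tested. With 1 array per time point, no hour has a replicate of its own.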
